A study of Mus musculus with 2 samples.

Results

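*Ccl3*, *Ccl4*, *Ccl5* and *Xcl1* are the 4 chemokine genes of T and NK lymphocytes described here. They were taken by their symbols from the gene table, in which all 4 have a row of their own among 27998 rows. That rule used no measured value, but the 4 genes were chosen with earlier results of these data known. Their unique molecular identifiers (UMIs, 1 per captured transcript) were summed per library and per cell class, and each sum was read beside the number of cell barcodes that held it. The libraries were made from CD45+ cells sorted from C57Bl/6 hemi-brains at postnatal day 21 (p21). The WT library came from galc+/+ littermates and the twi library from galc-/- mice, neither of them treated, and 2 to 3 animals were pooled into 1 library per genotype.

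Chemokines are small secreted proteins that guide leukocytes along a gradient and are grouped by the spacing of their first cysteines. CCL3, CCL4 and CCL5 are CC chemokines that signal through receptors such as CCR1 and draw monocytes, activated T cells and NK cells. XCL1 is a C chemokine, read by XCR1 on cross-presenting dendritic cells. In activated CD8+ T cells and NK cells the 4 genes are classic products of receptor triggering. Microglia and monocytes also make CCL3 and CCL4, while effector and memory lymphocytes keep a store of *Ccl5* message.

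The coding sequences show how the members differ. Each stretch below runs 5′ to 3′ on the coding strand, from 4 codons before the first cysteine codon of the chemokine motif to 4 codons after the last cysteine codon, with cysteine codons in capitals. The first 25 codons, which hold the signal peptide, were left out of the search.
*Ccl3*: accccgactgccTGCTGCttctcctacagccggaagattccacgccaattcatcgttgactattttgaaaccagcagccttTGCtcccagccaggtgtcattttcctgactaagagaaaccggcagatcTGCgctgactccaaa
*Ccl4*: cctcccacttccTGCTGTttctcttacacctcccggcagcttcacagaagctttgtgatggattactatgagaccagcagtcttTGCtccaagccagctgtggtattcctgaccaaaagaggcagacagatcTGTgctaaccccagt
*Ccl5*: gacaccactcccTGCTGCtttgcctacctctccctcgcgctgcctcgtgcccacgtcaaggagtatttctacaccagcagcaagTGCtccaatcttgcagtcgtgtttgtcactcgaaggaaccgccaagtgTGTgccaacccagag
*Xcl1*: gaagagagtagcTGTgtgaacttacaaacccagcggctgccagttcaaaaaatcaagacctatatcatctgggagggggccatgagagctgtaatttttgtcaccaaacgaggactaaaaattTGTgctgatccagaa
*Ccl3*, *Ccl4* and *Ccl5* each carried 4 cysteine codons past the leader, 2 of them adjacent. *Xcl1* carried 2, none of them adjacent.

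In GENCODE vM21 on GRCm38, the assembly also called mm10, *Ccl5* (ENSMUSG00000035042) lies at chr11:83525778-83530518 on the minus strand. *Ccl3* (ENSMUSG00000000982) lies at chr11:83647844-83649355 on the minus strand, and *Ccl4* (ENSMUSG00000018930) at chr11:83662584-83664683 on the plus strand, 13228 bases away. *Xcl1* (ENSMUSG00000026573) is on another chromosome, at chr1:164931644-164935527 on the minus strand. All 4 genes have 3 exons. The coding sequences of *Ccl3* and *Ccl4* were the most alike pair, with 69.5% of aligned positions identical, but the longest run of bases that their transcripts shared was 9. Across all 6 pairs of members the longest shared run was 13 bases.

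The WT library held 3749714 UMIs in 1278 barcodes and the twi library 4807539 UMIs in 1220 barcodes. Barcodes with more than 15% mitochondrial UMIs were removed, which left 1271 WT barcodes with a median of 2222 UMIs and 1207 twi barcodes with a median of 3182. No barcode was shared. *Galc* had 4 UMIs in WT and 8 in twi, and the twi allele is a point mutation that a 3′ count does not read. The pools differed in sex: *Xist* without a Y-linked transcript was seen in 45.4% of twi barcodes and in 0 WT barcodes, so genotype and the sex of the pooled animals cannot be told apart over all barcodes. With 1 library per genotype there was no replicate error and no test. Levels are UMIs per 1000000 UMIs of the same barcodes (CPM) with exact Poisson 95% intervals, shares of barcodes carry exact Clopper-Pearson 95% intervals, and ratios of CPM carry exact conditional 95% intervals. All of them cover counting error only, and where a few barcodes held most UMIs they are too narrow.

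Barcodes were put into classes by their marker UMIs. CD8 T barcodes numbered 100 in WT and 356 in twi, NK barcodes 66 and 59, and T cells with NK receptors 45 and 164. There were 9 and 48 barcodes gated as gamma-delta T, 219 and 60 neutrophils, 19 and 18 microglia and 33 and 44 monocytes, in that order. The markers named next were part of the gates, so their detection describes the classes and does not check the labels. *Cd8b1* was seen in 98.0% and 94.1% of CD8 T barcodes, *Ncr1* in 97.0% and 94.9% of NK barcodes, and *Tmem119* in 94.7% of WT and 66.7% of twi microglia. The gamma-delta class rests on IL-17-lineage genes such as *Cd163l1*, because the receptor constant genes are not among the rows, and its label could not be checked on them. RNA from other cells was present at different levels: the 7 neutrophil genes made up 13.9 per 10000 UMIs of CD8 T barcodes in WT and 4.15 in twi. In NK barcodes they made up 11.7 and 3.78. Their part in the differences described here was not tested.

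Over all barcodes, *Xcl1*, *Ccl5* and *Ccl4* were higher in twi, and *Ccl3* was lower. *Xcl1* went from 206 UMIs (55.1 CPM) in WT to 1432 UMIs (299 CPM) in twi, a ratio of 5.43 (4.69 to 6.31). *Ccl5* went from 2198 to 4070.4 CPM, a ratio of 1.85 (1.80 to 1.90), and *Ccl4* from 170.3 to 226 CPM, a ratio of 1.33 (1.21 to 1.47). *Ccl3* was lower, at 200.2 CPM in WT and 135 CPM in twi, a ratio of 0.672 (0.604 to 0.748). Its direction turned among barcodes with a Y-linked transcript and no *Xist*, 487 in WT and 207 in twi, where the ratio was 1.47 (1.22 to 1.76). There the ratios were 2.84 (2.21 to 3.66) for *Xcl1*, 2.12 (2.03 to 2.22) for *Ccl5* and 1.51 (1.25 to 1.82) for *Ccl4*. In such sums more cells of a type and more RNA per cell are mixed, so the WT level of each class was also weighted by the UMI total of that class in twi. That gave 105 CPM for *Xcl1* beside 299 CPM measured, and 3714 CPM for *Ccl5* beside 4070.4 CPM measured. For *Ccl4* it gave 241 CPM beside 226 CPM measured, and for *Ccl3* 214 CPM beside 135. Barcodes left unassigned entered these sums, at 1840.4 CPM of *Ccl3* and 1199 CPM of *Ccl4* in WT. Of their WT UMIs, 5 barcodes with basophil or mast cell markers held 211 of 241 for *Ccl3* and 135 of 157 for *Ccl4*. The weighted values of *Ccl3* and *Ccl4* thus rest in part on those 5 barcodes, and were not recomputed without them.

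For *Ccl3*, *Ccl5* and *Xcl1*, the class with the largest share of the gene's UMIs differed between the libraries. NK barcodes held 53.0% of all *Ccl5* UMIs in WT and 14.2% in twi, while CD8 T barcodes held 11.9% and 45.0%. For *Xcl1*, CD8 T barcodes held 30.0% in twi against 4 of 206 UMIs in WT, NK barcodes went from 40.3% to 13.5%, and T cells with NK receptors held 33.5% and 37.2%. *Ccl3* and *Ccl4* had large shares outside the lymphocytes. Unassigned barcodes held the most *Ccl3* UMIs in WT, 32.2%, with NK barcodes next at 23.4%, and monocytes held the most in twi. Monocytes held 12.7% of *Ccl3* UMIs in WT and 33.2% in twi, and microglia, 1.49% of barcodes in each library, held 26.7% and 26.5% of *Ccl4* UMIs. CD8 T barcodes held 2.83% of *Ccl4* UMIs in WT and 24.9% in twi, and T cells with NK receptors 6.91% and 13.2%.

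**Figure D1:**
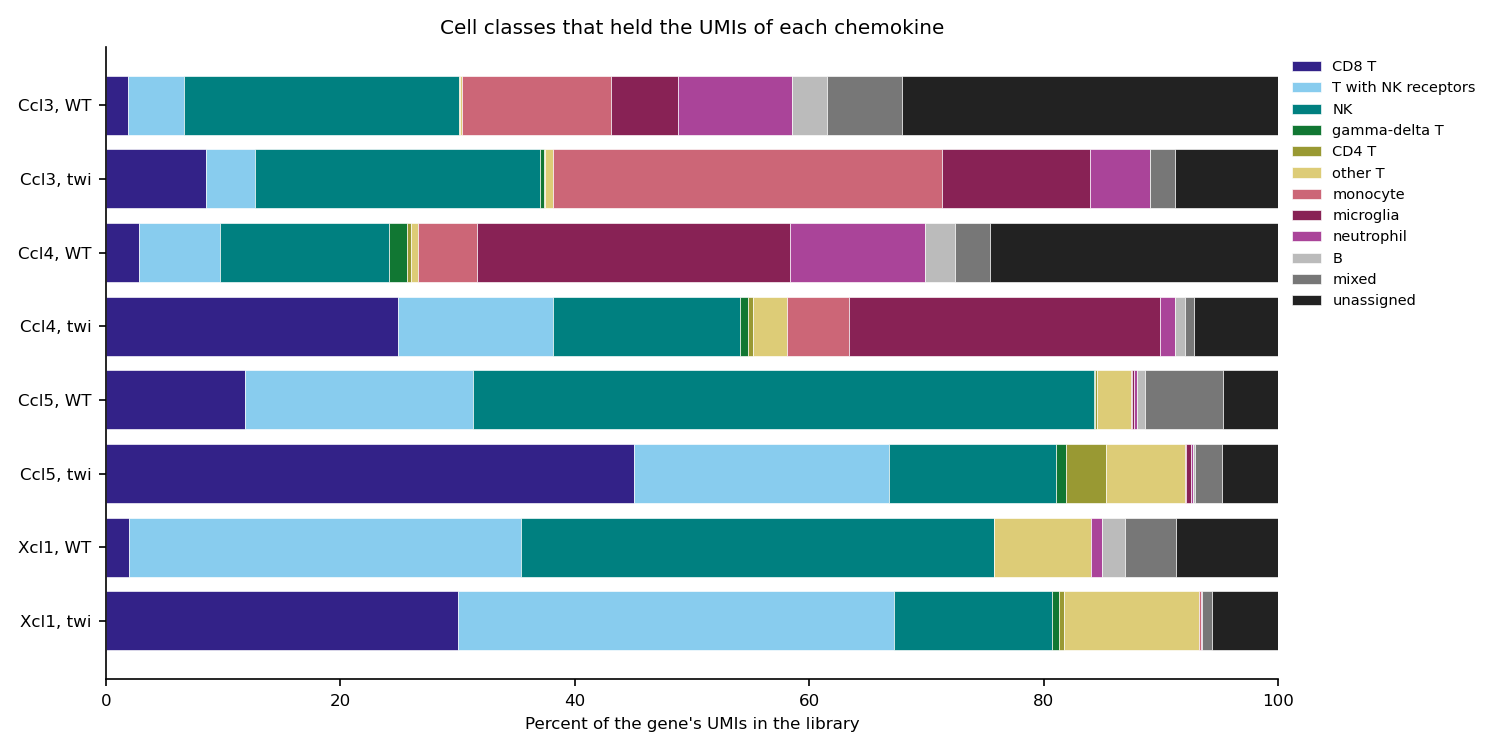
Percent of each chemokine's UMIs held by each cell class, with 1 bar per gene and library. CD8 T barcodes (leftmost block) held 11.9% of *Ccl5* UMIs in WT and 45.0% in twi, and unassigned barcodes (black) held 32.2% of WT *Ccl3* UMIs.

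Within classes, the order of levels differed from gene to gene. *Ccl5* was highest in NK barcodes, at 22823 CPM (22151 to 23511) in WT and 13281 CPM (12791 to 13785) in twi. In WT, T cells with NK receptors followed at 9139 CPM (8695 to 9599), then CD8 T at 2527 CPM (2371 to 2691) and the remaining T cells at 1191 CPM (1046 to 1351). In twi the next classes lay close together, with CD8 T at 5636 CPM (5518 to 5755) above T cells with NK receptors at 5156 CPM (5002 to 5313). The other T cells (3099.6 CPM, 2934 to 3272) and CD4 T cells (2893 CPM, 2677 to 3122) had overlapping intervals there. B cells, which do not make *Ccl5* in quantity, give the background of free RNA: no B barcode held more than 2 UMIs, and 9.71% of the WT and 23.5% of the twi ones had any, at median depths of 1998 and 2206 UMIs. Neutrophils (9.59% and 30.0% of barcodes, at most 2 UMIs each) and monocytes (18.2% and 34.1%, at most 4 UMIs) stood near that background.

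*Xcl1* was found mainly in lymphocytes with NK receptors and, in twi, also in CD8 T and other T cells. In WT the levels in NK barcodes (435 CPM, 346 to 539) and in T cells with NK receptors (396 CPM, 308 to 501) overlapped, and other T cells were next at 83.7 CPM (48.7 to 134). In twi the order was NK (924 CPM, 798 to 1064), T cells with NK receptors (644 CPM, 591 to 701), other T (391 CPM, 334 to 455) and CD8 T (276 CPM, 250.3 to 303), with no overlap between neighbours. No *Xcl1* UMI was seen in microglia, where 3 UMIs would have been 64.5 CPM in WT and 29.5 CPM in twi. In B cells 0.540% of WT and 0.602% of twi barcodes had one, which is the background for its shares.

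*Ccl4* was highest in microglia among the named classes, at 3652 CPM (3124 to 4244) in WT and 2824 CPM (2507 to 3171) in twi. NK barcodes were at 482 CPM (388 to 591) and 833 CPM (714 to 966). *Ccl3* was at similar levels in NK barcodes (917 CPM, 786 to 1063, in WT) and microglia (924 CPM, 669 to 1244), and in twi NK barcodes, microglia and monocytes lay at 751, 797 and 797 CPM with overlapping intervals. CD8 T barcodes were below all of these, at 36.3 CPM (19.8 to 60.8) in WT and 35.4 CPM (26.6 to 46.0) in twi.

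**Figure D2:**
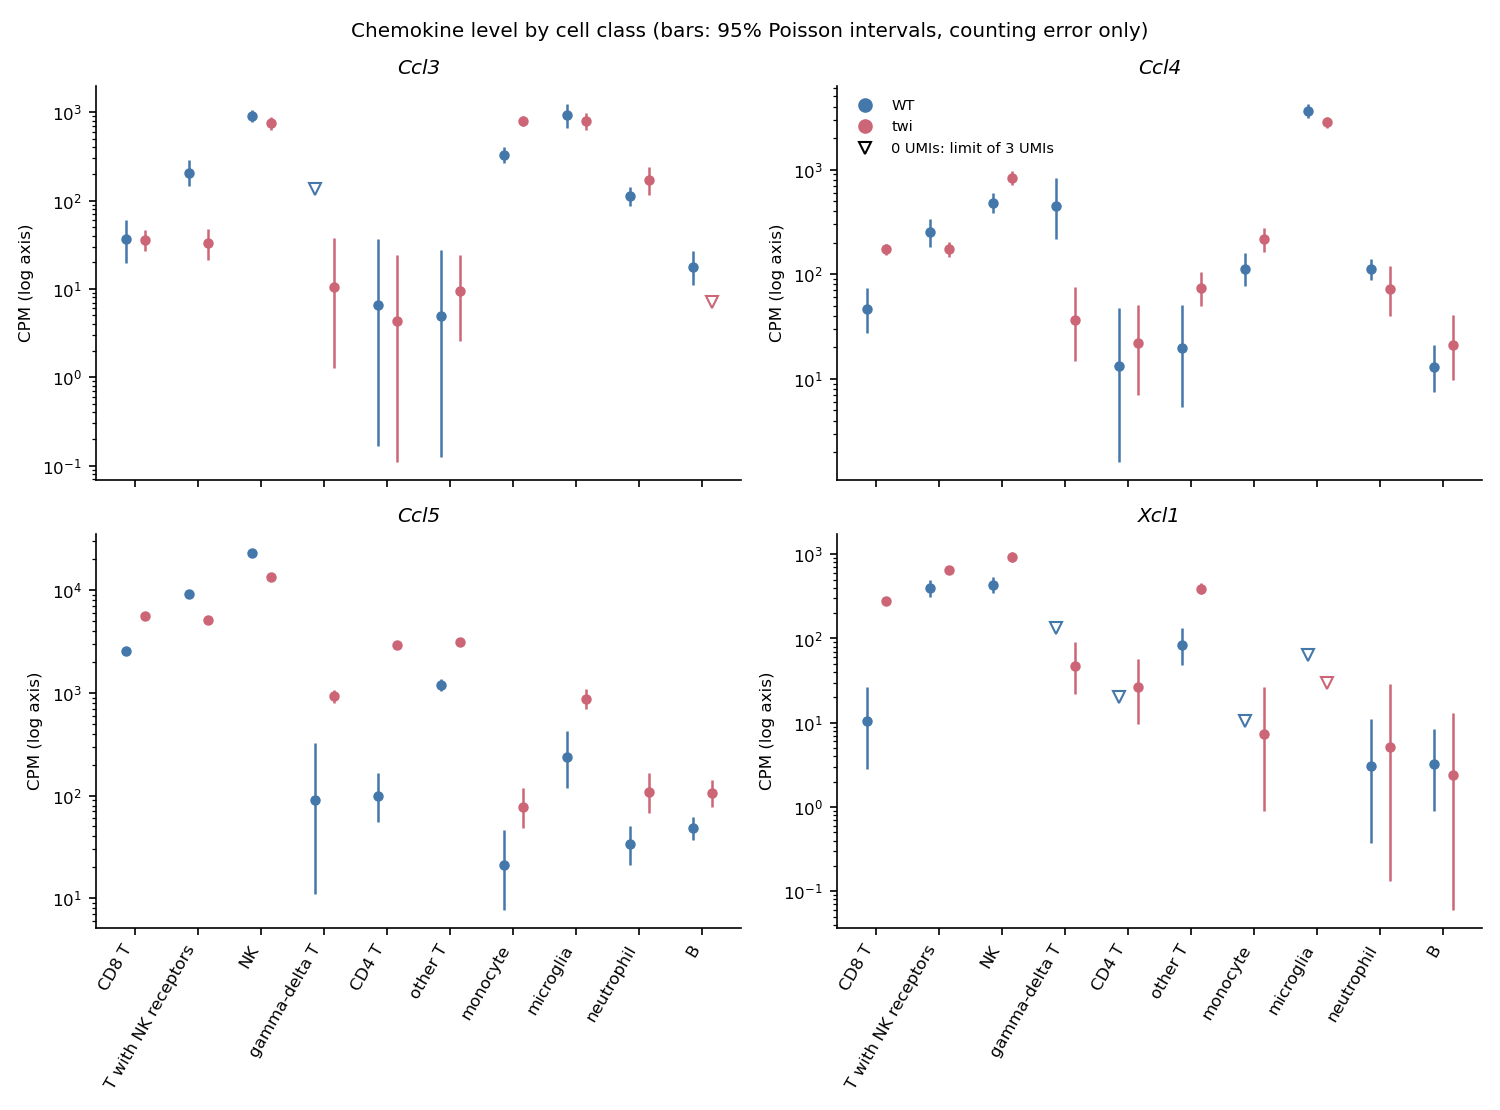
CPM of each chemokine (log axis) in 10 cell classes of the WT and twi libraries. Points are summed UMIs, bars are 95% Poisson intervals for counting error, and open triangles mark 3 UMIs where none was seen. *Ccl5* and *Xcl1* peak in NK barcodes, *Ccl4* in microglia, and *Xcl1* in CD8 T barcodes is at 10.4 CPM in WT and 276 CPM in twi.

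In CD8 T cells *Xcl1*, *Ccl4* and *Ccl5* were higher in twi, and *Ccl3* was near equal. *Xcl1* was held by 4 of 100 WT barcodes, with 1 UMI in each (10.4 CPM), and by 125 of 356 twi barcodes, with up to 35 UMIs (276 CPM). The ratio was 26.6 (10.3 to 98.2), and rests on those 4 WT UMIs. It was 12.7 with barcodes of mixed lineage kept, 14.1 with barcodes weighted equally and 13.9 at 1000 UMIs per barcode. *Ccl4*, which is secreted by the same cells on activation, had 18 UMIs in 9 WT barcodes (46.6 CPM) and 270 UMIs in 86 twi barcodes (174 CPM), a ratio of 3.72 (2.31 to 6.38). A single WT barcode held 8 of the 18 UMIs, and without the highest barcode of each library the ratio was 6.04 (3.23 to 12.8). *Ccl5* was seen in 44.0% of WT and 84.0% of twi CD8 T barcodes, with levels of 2527 and 5636 CPM and a ratio of 2.23 (2.09 to 2.38). *Ccl3* had 14 UMIs in 8 WT barcodes and 55 UMIs in 31 twi barcodes, and the ratio of 0.975 had an interval from 0.535 to 1.90.

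Thus 3 of the 4 members were more than 2-fold higher in twi CD8 T cells and none was more than 2-fold lower. Of all 8511 genes with at least 10 UMIs in the class, 14.0% were more than 2-fold higher in twi and 4.56% more than 2-fold lower. Twi barcodes were deeper, with a median of 3802 UMIs against 3350.5. With each barcode thinned to 1000 UMIs, *Xcl1* was expected in 1.82% of WT and 16.7% of twi barcodes, *Ccl4* in 5.65% and 11.9% and *Ccl5* in 28.2% and 71.6%. *Ccl3* was expected in 2.87% and 2.86%. The values differed within 1 sex. Among barcodes with a Y-linked transcript and no *Xist*, 44 in WT and 55 in twi, the ratio was 8.60 (2.66 to 44.2) for *Xcl1*, on 3 WT UMIs, 2.99 (1.54 to 6.28) for *Ccl4* and 3.54 (3.19 to 3.93) for *Ccl5*. For *Ccl3* it was 0.307 (0.0535 to 1.23), on 9 WT and 3 twi UMIs.

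**Figure D3:**
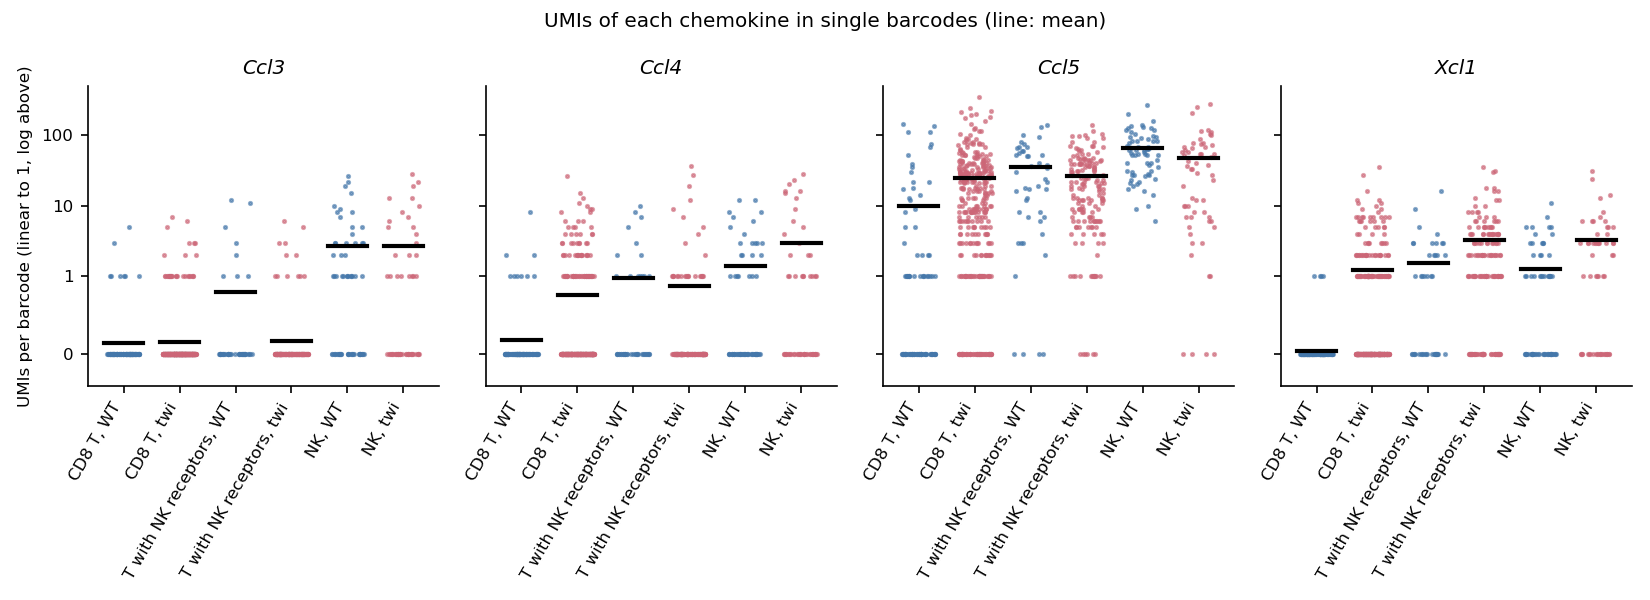
UMIs of each chemokine in every CD8 T barcode, T cell with NK receptors and NK barcode of the WT (blue) and twi (red) libraries. The axis is linear to 1 and logarithmic above, and black lines are means. *Xcl1* reaches 1 UMI in WT CD8 T barcodes and 35 in twi, whereas *Ccl3* stays at or below 7 UMIs in CD8 T barcodes of both.

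The UMIs of the members were spread over CD8 T barcodes in different ways. In twi, the 3 highest barcodes held 9.34% of *Ccl5* UMIs, 18.2% of *Xcl1*, 20.0% of *Ccl4* and 32.7% of *Ccl3* UMIs. The highest barcodes that together held 50% of the UMIs numbered 39 for *Ccl5*, 19 for *Xcl1*, 14 for *Ccl4* and 7 for *Ccl3*. WT sums were more concentrated, since 3 barcodes with 143, 136 and 112 UMIs held 40.1% of *Ccl5* there. The median WT barcode with *Ccl5* held 2.50 UMIs, and the median twi barcode with *Ccl5* held 17.0. *Ccl5* was therefore seen in a larger share of CD8 T barcodes in twi, 84.0% against 44.0% in WT. Twi barcodes that held it also had more UMIs at the median.

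**Figure D4:**
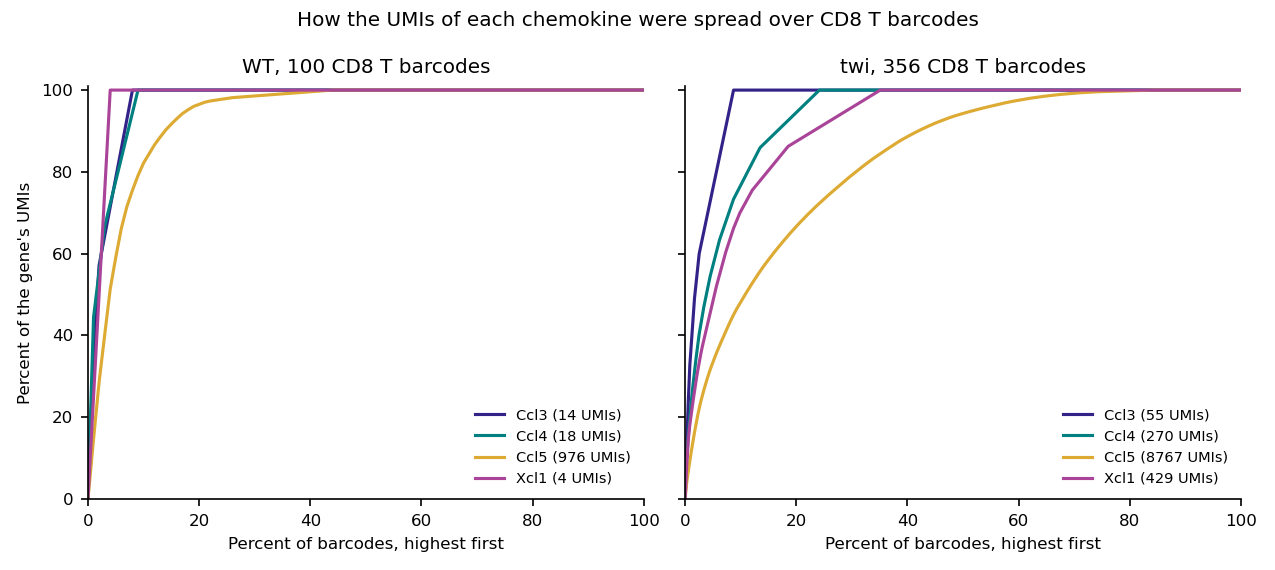
Cumulative percent of each chemokine's UMIs against the percent of CD8 T barcodes, highest barcode first, in WT (100 barcodes) and twi (356 barcodes). In twi the *Ccl5* curve climbs most slowly, with 50% of its UMIs in 39 barcodes, and the *Ccl3* curve fastest, with 50% in 7.

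The make-up of the class differed between the libraries. A UMI of *Cxcr6*, *Gzmb* or *Gzmk*, which mark effector CD8 T cells, was seen in 22.0% of WT and 73.0% of twi CD8 T barcodes, which was 22 and 260 barcodes, and this division was chosen after the values of the class were known. With such a UMI, *Ccl5* was at 3892 CPM in WT and 6941 CPM in twi, a ratio of 1.78 (1.62 to 1.97), and 1 barcode held 143 of the 423 WT UMIs. Without one, in 78 WT and 96 twi barcodes, *Ccl5* was lower in twi, at 1993 and 1311 CPM, a ratio of 0.658 (0.581 to 0.745), and 1 WT barcode held 136 of the 553 WT UMIs. The higher summed *Ccl5* level of twi CD8 T cells therefore did not hold in barcodes without an effector UMI. The share of these barcodes with *Ccl5* was nevertheless higher in twi, at 41.0% (30.0 to 52.7) in WT and 68.8% (58.5 to 77.8) in twi. With each barcode thinned as above, the expected shares were 26.0% and 43.6%. Barcodes with an effector UMI were somewhat deeper, at medians of 3872 and 3926 UMIs against 3323 and 3429.

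*Xcl1* and *Ccl4* were higher in twi in both kinds of barcode. *Xcl1* had ratios of 11.5 (3.89 to 55.8) with an effector UMI and 39.2 (6.73 to 1579) without, on 3 and 1 WT UMIs. In twi it was at 316 CPM (285 to 349.9) with an effector UMI and at 141 CPM (105 to 186) without, where 1 barcode held 27 of 51 UMIs. *Ccl4* had ratios of 1.80 (1.01 to 3.54) and 4.10 (from 1.69 upward), on 12 and 6 WT UMIs, with 8 of the 12 in 1 barcode. *Ccl3* was lower in twi with an effector UMI, at 92.0 and 36.8 CPM, a ratio of 0.400 (0.198 to 0.892), on 10 WT UMIs of which 1 barcode held 5. Without one its ratio was 2.12 (0.627 to 9.11).

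Interferon-stimulated transcripts went with different amounts of chemokine message in twi CD8 T barcodes. In the 107 twi barcodes with at least 3 UMIs of *Isg15*, *Ifit1* and *Ifit3* together, *Xcl1* was at 299.5 CPM (254 to 351), against 197 CPM (164 to 236) in the 154 with none. *Ccl3* was at 42.5 CPM (26.6 to 64.4) against 9.95 CPM (3.65 to 21.7), and *Ccl4* at 182 against 99.5 CPM. *Ccl5* was at 6063 CPM (5853 to 6279) against 4589 CPM (4419 to 4763). Among barcodes with an effector UMI, 95 and 88 of these, the intervals overlapped for *Xcl1* (311 and 288 CPM), *Ccl4* (174 and 147 CPM) and *Ccl3* (39.9 and 11.3 CPM, the latter on 4 UMIs). *Ccl5* there was at 6443 CPM (6218 to 6675) in the interferon-high barcodes and at 6915 CPM (6644 to 7194) in those with none. These intervals overlapped narrowly. A single barcode held 353 of the 2452 *Ccl5* UMIs behind the latter level, so no direction is read from the pair. Cycling barcodes, of which twi had 42, had *Ccl3* at 74.8 CPM (47.9 to 111), against 25.1 CPM (17.1 to 35.6) in the 314 others. Of the 24 *Ccl3* UMIs in cycling barcodes, 3 barcodes held 7, 6 and 5, and none of the others held more than 3. Those 3 barcodes thus held most of these UMIs. The level was not recomputed without them, so no difference in level is read from the pair. Cycling barcodes were deeper, at a median of 5760 UMIs against 3669. With each barcode thinned as above, *Ccl3* was expected in 7.51% of them and 2.23% of the others. *Ccl4* was lower in cycling barcodes, at 81.1 against 198 CPM.

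In the NK gate as a whole *Xcl1* and *Ccl4* were higher in twi and *Ccl5* was lower. *Xcl1* was in 31 of 66 WT barcodes (435 CPM) and 37 of 59 twi barcodes (924 CPM), a ratio of 2.12 (1.63 to 2.78). *Ccl4* was in 24 and 25 barcodes, at 482 and 833 CPM, a ratio of 1.73 (1.33 to 2.25). *Ccl5*, a constitutive product of mature NK cells, was in all 66 WT barcodes and in 55 of 59 twi barcodes, and the ratio was 0.582 (0.555 to 0.610). For *Ccl3* the ratio was 0.820, with an interval from 0.657 to 1.02. So 1 of the 4 members was more than 2-fold higher and none more than 2-fold lower, in a class where 8.20% of 4790 genes were more than 2-fold higher in twi and 7.20% more than 2-fold lower. Among the 28 WT and 17 twi NK barcodes with a Y-linked transcript and no *Xist*, *Ccl3* was higher in twi, with a ratio of 1.79 (1.17 to 2.77), and the ratios were 1.64 (1.10 to 2.45) for *Xcl1*, 1.98 (1.25 to 3.17) for *Ccl4* and 0.488 (0.448 to 0.532) for *Ccl5*. NK barcodes in twi had *Eomes*, a regulator of mature NK cells, in 40.7% of barcodes, against 60.6% in WT.

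T cells with NK receptors, a gate that takes in NKT cells and CD8 T cells that have gained such receptors, had less *Ccl3* in twi. It had 36 UMIs in 8 of 45 WT barcodes (206 CPM) and 27 UMIs in 12 of 164 twi barcodes (32.7 CPM), a ratio of 0.158 (0.0925 to 0.268). In WT, 2 barcodes held 12 and 11 of the 36 UMIs. *Ccl5* had a ratio of 0.564 (0.532 to 0.598) and *Ccl4* of 0.686 (0.486 to 0.986), whereas *Xcl1* was higher, at 396 CPM in WT and 644 CPM in twi, a ratio of 1.63 (1.27 to 2.12). For *Ccl4*, 3 of the 164 twi barcodes held 58.0% of the UMIs. Of the 4 members 0 were more than 2-fold higher and 1 more than 2-fold lower, beside 12.9% and 7.58% of 7136 genes. With a Y-linked transcript and no *Xist*, 1 UMI of *Ccl3* and 1 of *Ccl4* were left in 12 twi barcodes, and the ratios were 0.0566 (0.00138 to 0.342) and 0.106 (0.00251 to 0.686).

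The make-up of that gate differed, with a CD8 UMI in 22.2% of WT and 46.3% of twi barcodes. Without a CD8 UMI (35 WT and 88 twi barcodes), *Ccl4* was lower in twi, at 349.8 and 123 CPM, a ratio of 0.352 (0.225 to 0.550), and *Xcl1* higher, with a ratio of 1.88 (1.44 to 2.49). With a CD8 UMI (10 and 76 barcodes), *Ccl4* had a ratio of 5.75 (1.55 to 48.1), on 2 WT UMIs, and *Xcl1* one of 4.04 (1.70 to 12.6). In twi, 1 barcode held 37 of the 99 *Ccl4* UMIs with a CD8 UMI, and 1 held 27 of the 44 without. *Ccl3* and *Ccl5* were lower in twi in both parts, with *Ccl5* ratios of 0.562 (0.523 to 0.603) and 0.734 (0.655 to 0.826). This division was chosen after the values of the class were known.

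Other T cells added smaller amounts. In gamma-delta T barcodes *Ccl5* had 2 UMIs in WT and 175 in twi, of which 2 barcodes held 52 and 51, and *Xcl1* had 0 UMIs in 9 WT barcodes and 9 UMIs in 4 of 48 twi barcodes. All 10 *Ccl4* UMIs of the WT gate were in 1 barcode. In CD4 T cells, *Ccl5* had 15 UMIs in 5 of 48 WT barcodes and 663 UMIs in 33 of 69 twi barcodes, a ratio of 29.0 (17.5 to 52.1). The highest 3 twi barcodes held 265, 105 and 93 of them, and 1 WT barcode held 9 of the 15. Without the highest barcode of each library the ratio was 42.5 (19.4 to 117), on 6 WT UMIs. *Xcl1* was seen in 3 of 69 twi CD4 T barcodes and in no WT one.

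In monocytes *Ccl3* was higher in twi. It was seen in 14 of 33 WT and 22 of 44 twi barcodes, at 332 and 797 CPM, a ratio of 2.40 (1.88 to 3.09). *Ccl4* was at 112 and 216 CPM, a ratio of 1.93 (1.23 to 3.07), and 1 twi barcode held 33 of 58 UMIs, without which and without its WT counterpart the ratio was 1.51 (0.790 to 2.93). Among the 21 WT and 11 twi monocytes with a Y-linked transcript and no *Xist*, the ratio was 6.92 (4.73 to 10.3) for *Ccl3* and 1.16 (0.573 to 2.26) for *Ccl4*. Of the 3 members with at least 10 UMIs, 2 were more than 2-fold higher, *Ccl3* and *Ccl5*, and none was more than 2-fold lower, beside 6.66% and 14.4% of 5748 genes. The *Ccl5* values there, 21.0 and 78.2 CPM, were below or near those of B cells, 48.1 and 107 CPM. The basophil and mast cell genes *Cpa3* and *Ms4a2* were also seen in WT monocytes. They made up 2.52 per 10000 UMIs, in 6.06% of barcodes, against 0 in twi. No monocyte ratio was recomputed without those barcodes.

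Microglia had the highest *Ccl4* of the named classes, in few barcodes. The gate also counts *C1qa*, *C1qb* and *C1qc*, so it can take in other macrophages. *P2ry12* was seen in 89.5% of WT and 66.7% of twi barcodes of the gate, and *Ccr2* in 10.5% and 22.2%. The *Ccl4* UMIs were in 9 of 19 WT and 7 of 18 twi barcodes, and 1 barcode held 109 of 170 UMIs in WT and 1 held 188 of 287 in twi. The ratio was 0.773 (0.637 to 0.940), and 0.790 (0.569 to 1.11) without those barcodes. *Ccl3* had a ratio of 0.863 (0.589 to 1.28). Only 8 WT and 4 twi microglia had a Y-linked transcript and no *Xist*, and there the ratio was 0.338 (0.247 to 0.459) for *Ccl4* and 0.473 (0.246 to 0.886) for *Ccl3*. *Ccl5* was at 236 and 876 CPM, but 2 twi barcodes held 39 and 35 of its 89 UMIs. Of 3 members with at least 10 UMIs, 1 was more than 2-fold higher and none more than 2-fold lower, beside 22.2% and 17.8% of 2461 genes. The 18 immediate early and activation genes, which also respond to tissue dissociation, summed to 113 per 10000 UMIs in WT and 39.6 in twi microglia. Their part in the chemokine levels was not tested. In neutrophils *Ccl3* was in 26 of 219 WT and 10 of 60 twi barcodes, at 112 CPM (87.6 to 141) and 170.3 CPM (117 to 239), and a single WT barcode held 35 of 73 *Ccl4* UMIs.

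A sizeable part of the WT *Ccl3* and *Ccl4* sums lay in 5 barcodes outside the named classes. They carried at least 3 UMIs of *Mcpt8*, *Cpa3*, *Ms4a2*, *Fcer1a* and *Cd200r3*, which mark basophils and mast cells, and no twi barcode in the unassigned group did. Only unassigned barcodes were screened for these markers. These 5 barcodes held 211 of the 749 *Ccl3* UMIs and 135 of the 637 *Ccl4* UMIs of the WT library. The highest of them held 89 UMIs of *Ccl3* and 133 of *Ccl4* among 2045 UMIs. Without them the ratio over all barcodes was 0.933 (0.831 to 1.05) for *Ccl3* and 1.68 (1.51 to 1.87) for *Ccl4*, while those of *Ccl5* and *Xcl1* were 1.85 and 5.41.

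Pairs of members were often seen in the same barcodes. In twi CD8 T cells *Ccl4* was in 16 of 31 barcodes with *Ccl3*, 51.6% (33.1 to 69.8), and in 21.5% (17.2 to 26.4) of those without. The median depths were 5475 and 3674 UMIs, and at 1000 UMIs per barcode the expected shares were 32.4% and 9.92%. In twi NK cells *Ccl4* was in 18 of 24 barcodes with *Ccl3*, 75.0% (53.3 to 90.2), and in 20.0% (8.44 to 36.9) of those without, at median depths of 3035 and 3233 UMIs. WT NK cells showed overlapping shares of 44.1% and 28.1%. *Xcl1* went along with *Ccl5* in twi CD8 T cells, where 95.2% (89.8 to 98.2) of barcodes with *Xcl1* held *Ccl5* and 77.9% (72.0 to 83.1) of those without. Barcodes with *Xcl1* were deeper there, with a median of 4314 UMIs against 3556, and thinning to 1000 UMIs brought the shares to 83.8% and 64.9%. In twi NK cells *Xcl1* and *Ccl4* were not seen together more often, since 32.4% (18.0 to 49.8) of barcodes with *Xcl1* held *Ccl4*, against 59.1% (36.4 to 79.3) of those without.

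Values of 3 receptors for these ligands are given here. *Ccr1* was mainly a neutrophil transcript, at 341 and 330.3 CPM. *Xcr1*, the receptor of XCL1, had 1 UMI in each library, and *Ccr3*, an eosinophil receptor that also binds CCL5, had 5 and 14.

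Some genes of cytotoxic proteins and cytokines were also higher in twi CD8 T cells. Of 10, 9 had at least 10 UMIs, and 4 were more than 2-fold higher in twi and 0 more than 2-fold lower, beside 14.0% and 4.56% of all genes in the class. Their median log2 ratio was 0.88, and that of all genes 0.13. *Nkg7*, a granule protein, was at 1165 and 2085 CPM, *Gzma* at 233 and 473 CPM, *Gzmb* at 109 and 410.1 CPM and *Gzmk* at 64.7 and 119 CPM. The same list in T cells with NK receptors had 0 higher and 2 lower of 8, beside 12.9% and 7.58% of all genes. The lower ones were *Gzma* (3835 and 402 CPM, ratio 0.105, 0.0916 to 0.120) and *Ifng* (189 and 90.8 CPM, ratio 0.480, 0.315 to 0.746). *Nkg7* was at 3027 and 2309 CPM and *Gzmb* at 338 and 425 CPM there. In NK cells none of 6 was past 2-fold, beside 8.20% higher and 7.20% lower of all genes, with *Gzma* at 11571 and 7562 CPM, *Nkg7* at 5154 and 3704 CPM, *Gzmb* at 739 and 704 CPM and *Ifng* at 199 and 191 CPM.

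Activation-induced and immediate early genes, which follow receptor signalling and handling of the tissue, showed no common direction in CD8 T cells. There 3 of 16 were more than 2-fold higher in twi, among them *Dusp2* (212 and 447 CPM), and 1 more than 2-fold lower, *Fos* (691 and 259 CPM, ratio 0.375, 0.320 to 0.439), beside 14.0% and 4.56% of all genes. *Junb* was at 958 and 897 CPM and *Jun* at 531 and 588 CPM, and the list's median log2 ratio was -0.08. In T cells with NK receptors 1 of 15 was higher and 6 lower, beside 12.9% and 7.58% of all genes, and the 4 with most UMIs were *Junb* (1760.1 and 1098 CPM), *Jun* (883 and 731 CPM), *Fos* (745 and 329 CPM) and *Dusp1* (631 and 309 CPM). In NK cells 0 of 15 were higher and 1 lower, beside 8.20% and 7.20% of all genes, with *Junb* at 1839 and 1594 CPM, *Jun* at 1116 and 1565 CPM, *Fos* at 1105 and 574 CPM and *Dusp2* at 581 and 727 CPM.

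Few other chemokines were measured in lymphocytes. Of 23 with a row, 4 had at least 10 UMIs in CD8 T cells, of which *Cxcl10*, an interferon-induced ligand of CXCR3, was at 20.7 and 63.6 CPM. A single WT barcode held all 8 WT UMIs of it, against 36 positive barcodes in twi. *Cxcl2* was more than 2-fold lower, at 12.9 and 6.43 CPM on 5 and 10 UMIs, and *Ccl6* was at 15.5 and 8.36 CPM. *Ccl25* had 5 and 14 UMIs. In NK cells *Cxcl10* was at 15.7 and 67.0 CPM and *Ccl9* at 105 and 9.57 CPM, and in T cells with NK receptors *Cxcl10* had 0 UMIs in WT and 47 in twi, 23 of them in 1 barcode, and *Ccl25* was at 22.9 and 7.26 CPM. In monocytes 3 of 5 were more than 2-fold higher and 0 lower, beside 6.66% and 14.4% of 5748 genes. There *Ccl6* was at 1101 and 1226 CPM and *Ccl9* at 794 and 1036 CPM. *Cxcl2* was at 21.0 and 224 CPM and *Ccl2* at 21.0 and 48.4 CPM, and 1 twi barcode held 40 of the 60 *Cxcl2* UMIs.

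The 4 genes fell into 2 patterns over the classes. Likeness was measured as Pearson's r of log2(CPM + 10) over the 19 class-by-library profiles with at least 15 barcodes, among 8965 genes, as a description. *Ccl3* and *Ccl4* were alike (r = 0.852), and so were *Ccl5* and *Xcl1* (r = 0.859), while *Ccl3* and *Xcl1* were not (r = 0.021). The genes most like *Xcl1* were *Fasl* (0.959), *Klrc1* (0.951) and *Fhl2* (0.944), and those most like *Ccl5* were *Il2rb* (0.949), *AW112010* (0.931) and *Ppm1j* (0.924). *Ccl3* was most like *Plek* (0.945), *Fcer1g* (0.902) and *Tyrobp* (0.899), and *Ccl4* most like *Il10rb* (0.919), *Ctsd* (0.914) and *Cmklr1* (0.911). The profiles of 1 library share its depth and its free RNA.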

How the data were processed

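CD45+ brain cells of WT and twi mice at p21 were profiled with the 10x Genomics 3′ v2 assay in 1 library per genotype. The matrices that the authors deposited hold UMI counts for each gene in each barcode, with no normalization. The submitters' processing notes name Cell Ranger 2.1.1 and mm10, and the study's methods name STAR and an adaptive UMI threshold for cells. Barcodes above 15% mitochondrial UMIs, which were still in the matrices, were removed here.

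Classes were gated on marker UMIs: a CD3 sum of at least 1 with CD8 and without *Cd4* for CD8 T, a CD3 sum of at least 2 with an NK receptor sum of at least 2 for T cells with NK receptors, and no CD3 with such a sum for NK. B (3 UMIs), neutrophil (5% of UMIs), microglia (5 UMIs) and monocyte (3 UMIs) flags set the others. Barcodes with markers of more than 1 lineage, 36 in WT and 30 in twi, were left out of the named classes as likely doublets, and no doublet caller was run. They were kept in the sums over all barcodes, in the weighting by class and in the shares of each gene's UMIs. The gamma-delta gate (at least 2 UMIs of *Cd163l1*, *5830411N06Rik*, *Il17a*, *Il23r*, *Blk* and *Sox13*) was chosen after the files were seen, since 0 of 7 receptor constant genes have a row.

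UMIs were summed per library and class, with a 2-fold limit and a minimum of 10 UMIs for counts of genes (scipy 1.17.1, numpy 2.4.6). Named genes are the members, their receptors, other chemokines, cytotoxic and cytokine genes, activation genes (the 4 with most UMIs per list, and those that a count turns on) and the 3 genes most like each member. Members and lists were chosen with earlier results of these data known. Intervals were tested on counts drawn with known folds from a Poisson distribution, which the intervals themselves assume. Those counts had no clumping of UMIs in a few barcodes, so the test cannot show how the intervals do where UMIs are clumped. Alternatives are given in the closing section, and some planned results are not reported here. Sequences and coordinates are from GENCODE vM21.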

Additional observations from a re-analysis of the deposited data

Results flagged for a closer look

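Some members had ratios of twi to WT on opposite sides of 1 in different classes, with counting intervals that left out 1. There was 1 library per genotype, so the difference between classes was not tested. For *Ccl5* the ratio was 2.23 in CD8 T, 3.22 in neutrophils, 3.71 in microglia and 3.73 in monocytes, and 0.564 in T cells with NK receptors and 0.582 in NK cells. Its counts in neutrophils and monocytes were near the background in B cells. For *Ccl4* it was 3.72 in CD8 T, 1.73 in NK cells and 1.93 in monocytes, and 0.686 in T cells with NK receptors and 0.773 in microglia. Without the highest barcode of each library the *Ccl4* interval held 1 in microglia (0.569 to 1.11) and in monocytes (0.790 to 2.93). In T cells with NK receptors the *Ccl4* ratio was 5.75 with a CD8 UMI, on 2 WT UMIs, and 0.352 without. In twi, single barcodes held 37 of the 99 and 27 of the 44 UMIs behind these ratios. For *Ccl3* it was 2.40 in monocytes and 0.158 in T cells with NK receptors.

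Barcodes left out of the named classes for markers of more than 1 lineage held *Ccl5* at 2019 CPM (1853 to 2196) in the 36 WT barcodes. In the 30 twi barcodes it was at 2475 CPM (2249.6 to 2717). The highest held 164 UMIs in WT and 186 in twi.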

How the results depend on the processing

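The ratios of the 4 members in CD8 T and NK cells were recomputed under 10 alternatives each, and 13 of 80 values left the 95% counting interval of the value reported. None of the 80 turned where the reported interval left out 1, while *Ccl3*, whose interval held 1, did: in NK to 1.79, and in CD8 T from 0.975 to 1.32 without the highest barcodes and 1.01 with no mitochondrial limit. With an NK receptor sum of at least 3, *Ccl5* in CD8 T had a ratio of 1.99. Without the highest barcode of each library it was 2.47. With barcodes weighted equally it was 2.02 in CD8 T and 0.689 in NK, and *Xcl1* in NK was at 1.54. At 1000 UMIs per barcode these were 2.01, 0.689 and 1.54. Among barcodes with a Y-linked transcript and no *Xist*, the CD8 T ratios were 0.307 for *Ccl3*, 3.54 for *Ccl5* and 8.60 for *Xcl1*, and the NK ratios 1.79 for *Ccl3* and 0.488 for *Ccl5*. Over all barcodes *Ccl3* turned from 0.672 to 1.47 in that subset, and without the 5 basophil or mast cell barcodes it was 0.933, both chosen after seeing the data. The cause was not tested. Summing CPM per barcode put the share of the 3 highest twi barcodes at 12.9% for *Ccl4*, 7.43% for *Ccl5* and 9.37% for *Xcl1* in CD8 T, and at 22.8% for *Ccl5* and 23.7% for *Xcl1* in NK. At 1000 UMIs per barcode, *Ccl4* was expected in 32.4% of twi CD8 T barcodes with *Ccl3*, against 9.92% without, and *Ccl5* in 83.8% of those with *Xcl1*, against 64.9% without. Counts of genes past 2-fold depended on the minimum: with at least 25 UMIs they were 607 higher and 137 lower in CD8 T, 309 and 184 in T cells with NK receptors and 63 and 68 in NK, from 1195 and 388, 918 and 541, and 393 and 345. With no minimum above 1 UMI they were 3317 and 1445, 3331 and 1665, and 2195 and 2069. Median-of-ratios size factors gave 348 lower genes in T cells with NK receptors. No paired analysis was possible because each genotype has 1 library.

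Small WT counts are a limit: 4 UMIs of *Xcl1* and 14 of *Ccl3* stand behind the CD8 T ratios. PCR and capture are covered by no interval, and animals were pooled, so differences between animals are not measured.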

Other observations

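Barcodes above the mitochondrial limit, 7 in WT and 13 in twi, held few UMIs of the members. In twi, *Xcl1* had 12 UMIs in 4 of these barcodes and *Ccl5* had 13 in 6, while WT had 0 of either.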
